A study of Homo sapiens with 8 samples.

Results

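Syndecans, serglycin, versican and CD44 carry or bind the long sulfated sugar chains of the cell surface and of secretory granules. The data concern the probe sets of 7 such genes, SDC1, SDC2, SDC3, SDC4, SRGN, VCAN and CD44. They were chosen by gene symbol, with the additional remark that SDC2 moved in opposite directions with the 2 constructs, so comparisons of SDC2 that use the arrays of a single construct are given as a description, with no p-value. The platform annotation gave these symbols to 29 of the 54675 probe sets on the array. The cells were Reh, a human leukemia line of B-cell precursors that the design text calls acute lymphoblastic and the sample labels list as non-Hodgkin lymphoma. They carried a control shRNA (arrays titled mock), an shRNA against CBFA2T3, the constitutively active kinase IKKβ(EE), or the CBFA2T3 shRNA with IKKβ(EE), called both transfections below, with 2 arrays per group named biological replicates 1 and 2. The labels call knockdown and expression transient. They do not give the time after transfection or the share of cells transfected, and they do not say whether the IKKβ(EE) cells also had a control shRNA.

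Syndecans are transmembrane core proteins whose heparan sulfate chains hold growth factors, chemokines and matrix proteins at the cell surface. SDC1 is the CD138 marker of plasma cells, SDC2 is best known from mesenchymal cells, SDC3 from the nervous system, and SDC4 sits in focal adhesions. Serglycin, the product of SRGN, is the proteoglycan of haematopoietic secretory granules, versican is a large secreted chondroitin sulfate proteoglycan, and CD44 is the main receptor for hyaluronan. IKKβ releases NF-κB from its inhibitors, and CBFA2T3 is a transcriptional corepressor of the ETO family.

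Levels are the authors' RMA values, log2 intensities of a probe set, in which 1 unit is a change of 2-fold. Levels on different probe sets cannot be compared. A probe set was tested if it reached log2 5 on at least 2 of the 8 arrays. This floor is used as an approximate limit to background, since no detection calls are in the table. Only 5 of the 29 member probe sets passed it, all 3 of SDC2 and 2 of the 3 of SRGN. SDC1, SDC3, SDC4, VCAN and CD44 had none. On their 23 probe sets the highest value on any array was 4.61.

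The targeted genes were checked first. CBFA2T3 had mean levels of 9.26 in control, 8.26 after its shRNA (limma adjusted p = 0.0518 against control, a miss), 8.90 under the kinase and 8.03 after both transfections (limma adjusted p = 0.00938). IKBKB on 211027_s_at averaged 4.0 in both groups without the kinase construct, 10.62 with it and 11.71 after both transfections. Its other probe sets differed little under the kinase, with means of 8.65 in control and 8.98 with IKKβ(EE) on 209341_s_at (limma adjusted p = 0.575) and of 6.87 and 7.13 on 209342_s_at (limma adjusted p = 0.676). Of the 13 B-cell precursor markers matched on the array, 12 passed the floor, PAX5, EBF1 and CD79A among them. Since each value is a mean over all cells of a culture, fewer cells expressing a gene and less RNA per cell cannot be told apart.

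SDC2 was lower after the shRNA against CBFA2T3, higher under IKKβ(EE), and below the control after both transfections. On 212158_at, its probe set with the highest mean, the control arrays stood at 6.10 and 5.47, the CBFA2T3 shRNA arrays at 4.13 and 3.46, the IKKβ(EE) arrays at 7.23 and 7.36, and those of both transfections at 4.88 and 4.76. No 2 of the 4 groups overlapped, and the order from low to high was CBFA2T3 shRNA, both, control and IKKβ(EE). The mean difference from control was -1.99 with the shRNA, whose arrays lie under the floor, and 1.51 with IKKβ(EE), or 285% of the control intensity.

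The second SDC2 probe set, 212154_at, gave the same order without overlap. Its levels were 4.61 and 4.75 in control, 3.70 and 3.88 after the shRNA, 5.79 and 5.62 under the kinase, and 4.20 and 4.28 after both transfections. On 212157_at the values ran from 4.30 to 5.23, and only the IKKβ(EE) arrays (5.08 and 5.23) lay apart from the other 6. Both 212154_at and 212157_at passed the floor through the 2 IKKβ(EE) arrays alone, so the levels of the other groups there are close to background and their differences may be understated. In the comparison of the CBFA2T3 shRNA with control, 2 of the 5 tested member probe sets were under an adjusted p of 0.05, both of SDC2, against 0.690% of all tested probe sets. For IKKβ(EE) against control it was 3 of 5, 1 of SDC2 and 2 of SRGN, against 0.229%. With the replicate number as a block it was 4 of 5, against 3.39%. These counts follow in part from the choice of SDC2, and nothing is read from them.

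**Figure D1:**
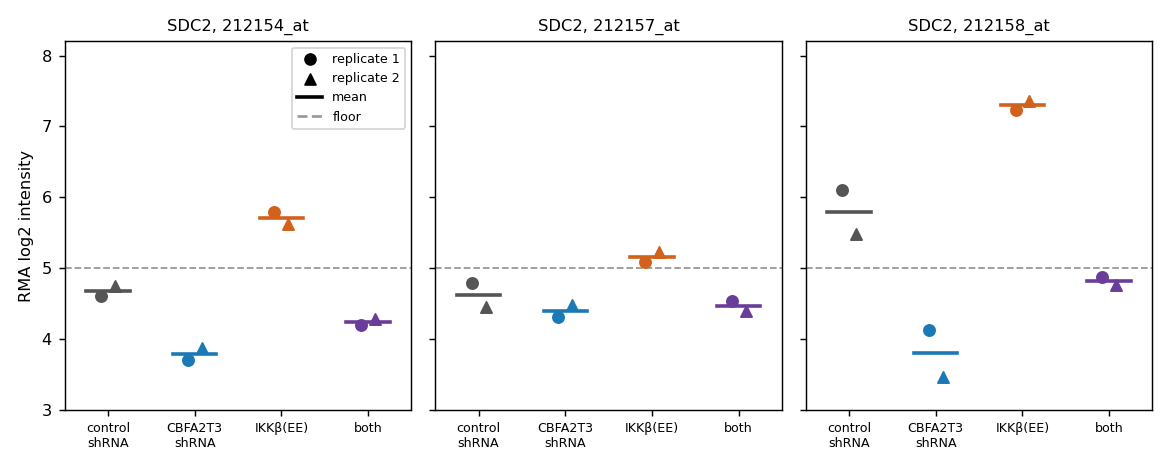
SDC2 levels (RMA log2 intensity, vertical axis) on its 3 probe sets in the 4 groups, 1 point per array (circle, replicate 1; triangle, replicate 2), with a bar at the mean and a dashed line at the floor of 5. On 212158_at the 2 arrays with both transfections (4.88 and 4.76) lie between the CBFA2T3 shRNA arrays and the control arrays.

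Adding the shRNA to IKKβ(EE) went with a lower SDC2 level. The mean difference between both transfections and IKKβ(EE) alone was -2.47 on 212158_at, -1.47 on 212154_at and -0.69 on 212157_at. The IKKβ(EE) arrays are the high ones by which SDC2 was chosen, and the arrays of both transfections lie under the floor on all 3 probe sets, so these values are a description and the ratio of intensities is uncertain. Against the CBFA2T3 shRNA alone, whose low level was likewise known, the mean differences were 1.03, 0.45 and 0.08.

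Against the control shRNA, SDC2 with both transfections differed by -0.96 ± 0.26 on 212158_at (limma adjusted p = 0.0632), by -0.44 ± 0.13 on 212154_at (0.0762) and by -0.15 ± 0.15 on 212157_at (0.568). None of the 3 passed the test, while 8.43% of all probe sets did. With the replicate block the first 2 passed (limma adjusted p = 0.0146 and 0.0329), as did 23.7% of all probe sets. On 212154_at and 212157_at all 4 arrays compared lie under the floor, and both entered the test only through the IKKβ(EE) arrays. The control arrays also enter the remark by which SDC2 was chosen, so the passes with the block are no support.

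Within each replicate number SDC2 kept its order on 212158_at. The CBFA2T3 shRNA array differed from its control by -1.97 in replicate 1 and by -2.01 in replicate 2. Adding the shRNA to IKKβ(EE) gave differences of -2.35 and -2.60. IKKβ(EE) alone differed from control by 1.13 and 1.89, and both transfections differed from the CBFA2T3 shRNA alone by 0.75 and 1.30.

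The interaction is the difference between both transfections together and the sum of the single changes. For SDC2 it was -0.48 on 212158_at, -0.58 on 212154_at and -0.45 on 212157_at, given without a test since both single changes enter it. On all 3 probe sets the value with both transfections was below the sum. The arrays of the CBFA2T3 shRNA and of both transfections lie under the floor on all 3, so the size and sign of this value are uncertain. The 3 probe sets also share the same arrays.

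SRGN had the largest differences of the tested members. On 201859_at the control arrays stood at 7.05 and 7.24, the CBFA2T3 shRNA arrays at 7.26 and 7.81, the IKKβ(EE) arrays at 10.94 and 11.72, and those of both transfections at 11.26 and 12.51. The 4 arrays with the kinase construct lay above the 4 without it, and the IKKβ(EE) arrays overlapped with those of both transfections. On 201858_s_at the control values were 5.88 and 5.75, the CBFA2T3 shRNA values 6.24 and 6.65, the IKKβ(EE) values 9.91 and 10.78, and the values with both 10.39 and 11.83. These 2 probe sets gave the same picture.

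**Figure D2:**
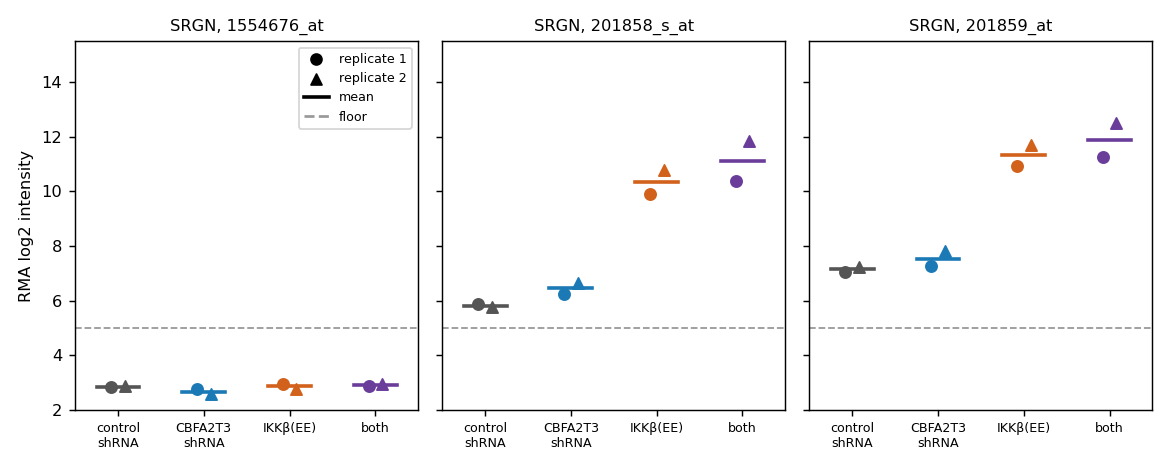
SRGN levels (RMA log2 intensity, vertical axis) on its 3 probe sets in the 4 groups, 1 point per array (circle, replicate 1; triangle, replicate 2), with a bar at the mean and a dashed line at the floor of 5. The arrays with the kinase construct reach 9.91 to 12.51 on 201858_s_at and 201859_at, while every array stays under 3 on 1554676_at.

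With both transfections SRGN rose against control by 4.74 ± 0.42 on 201859_at (26.8-fold, limma adjusted p = 0.00259) and by 5.29 ± 0.46 on 201858_s_at (39.2-fold, limma adjusted p = 0.00239). Of all probe sets 4.68% were called higher in this comparison. Against the CBFA2T3 shRNA alone the rise was 4.35 ± 0.42 (20.4-fold, limma adjusted p = 0.00606) and 4.67 ± 0.46 (25.4-fold, 0.00670), where 0.862% of all probe sets were called and 0.821% called higher. Without replicate 1 of the CBFA2T3 shRNA the adjusted p of this last comparison was 0.0753 and 0.0797. It was 0.0628 and 0.0664 with only the arrays of the 2 groups in the fit. Under IKKβ(EE) alone SRGN was above control by 4.19 ± 0.42 on 201859_at (18.2-fold, limma adjusted p = 0.0164). On 201858_s_at it was 4.53 ± 0.46 (23.1-fold, limma adjusted p = 0.0169), where 0.229% of all probe sets were called. With an array left out these differences ran from 3.80 to 4.58 and from 4.09 to 4.97.

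The shRNA alone went with smaller differences in SRGN than the kinase construct. Against control the mean difference was 0.39 on 201859_at (95% confidence interval -0.59 to 1.37, limma adjusted p = 0.720). On 201858_s_at it was 0.63 (-0.45 to 1.70, limma adjusted p = 0.566). In that comparison 0.690% of all probe sets were called. Added to IKKβ(EE) the shRNA gave 0.56 ± 0.42 (95% confidence interval -0.43 to 1.54, limma adjusted p = 0.585) and 0.76 ± 0.46 (-0.31 to 1.84, limma adjusted p = 0.480). The replicate block did not bring either of these under 0.05 (limma adjusted p = 0.172 and 0.186). The intervals leave room for a further rise of more than 2-fold. In this comparison 0.143% of all probe sets were called. The interaction was 0.17 (95% confidence interval -1.22 to 1.55) and 0.14 (-1.38 to 1.66) and was not called by limma on either probe set, against 0.0123% of all probe sets called.

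On 201858_s_at and 201859_at replicate 2 of SRGN lay above replicate 1 in every group except the control on 201858_s_at. On 201859_at the gap was 0.19 in control, 0.55 after the shRNA, 0.78 under the kinase and 1.25 after both transfections. The rise over control with both transfections was accordingly 4.21 within replicate 1 and 5.27 within replicate 2. The third SRGN probe set, 1554676_at, stayed between 2.58 and 2.96 on all 8 arrays, without the difference seen on the others; what it targets within the gene is not given in the sources used here.

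SRGN is also a gene of myeloid and mast cells, so their markers are given beside it. Of 7 matched myeloid markers only CSF1R and ITGAM passed the floor, while CD14, LYZ, S100A8, S100A9 and MPO did not. The summed linear intensity of the 7 was 137 and 149 in control, 182 to 190 after the shRNA, 147 to 214 under the kinase and 151 to 186 after both transfections, with none called by limma against control (ITGAM adjusted p = 0.286 with both). For 7 mast cell and megakaryocyte markers the sum was 254 to 257 in control and 190 to 194 with both transfections, with KIT called lower (limma adjusted p = 0.0213). Beside SDC2, the 8 fibroblast markers had sums of 327 to 332 in control, 343 to 351 after the shRNA, 294 to 299 under the kinase and 313 to 365 after both; their part in the result was not tested.

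**Figure D3:**
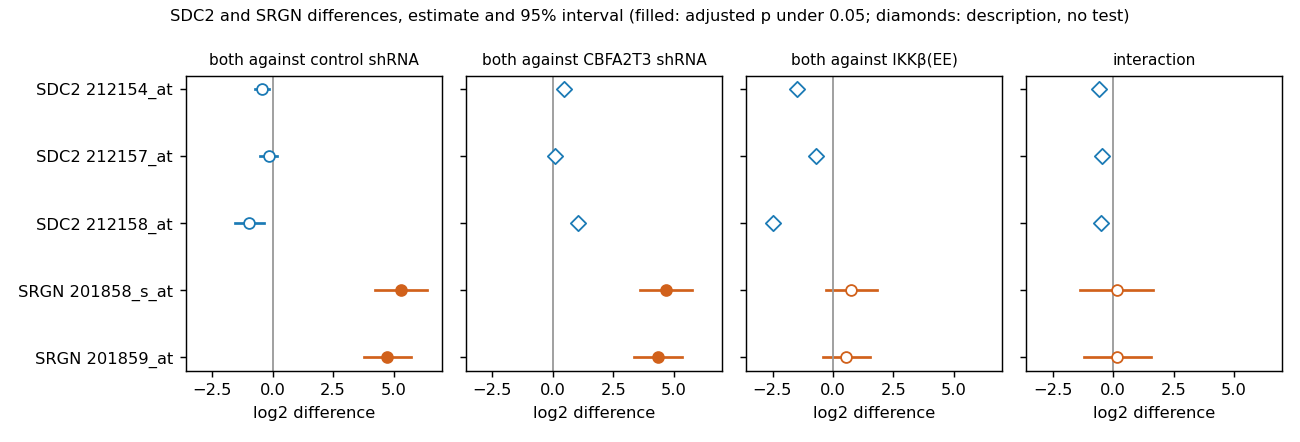
Differences of log2 intensity (horizontal axis) for the 3 SDC2 probe sets (blue) and 2 SRGN probe sets (orange) in the comparisons that include the arrays with both transfections; circles carry 95% confidence intervals and are filled where the adjusted p is under 0.05, and diamonds are values given without a test. SDC2 lies at -2.47 on 212158_at against IKKβ(EE), where the SRGN intervals cross 0.

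The other syndecans stayed near background in all groups. SDC1 ran from 3.55 to 4.26 over its 2 probe sets, SDC3 from 3.81 to 4.61 over 2, and SDC4 from 3.99 to 4.45 on its single one. For SDC4 the control arrays stood at 4.33 and 4.29, the IKKβ(EE) arrays at 4.45 and 4.08 and those with both transfections at 4.25 and 4.28, so the IKKβ(EE) arrays fell on either side of the control and those of both transfections lay just below it. SDC1 had overlapping groups in all 5 pairwise comparisons on both its probe sets. SDC1 is thus close to background here. Of 8 other plasma cell markers 6 passed the floor. They were XBP1, CD38 and MZB1, and PRDM1, IRF4 and DERL3 with means of only 5.45 to 5.76 in control. TNFRSF17 and JCHAIN did not pass.

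The 250 bases before the start of SDC4 are shown because they hold a match to the κB motif, the binding sequence of NF-κB, in a gene whose IKKβ(EE) arrays lay on either side of the control. They lie at chr20:45348425-45348674 on the minus strand (GRCh38.p14, RefSeq), and the capitals mark the κB match, 97 to 88 bases before the start. For comparison the same stretch of CD44, chr11:35138921-35139170 on the plus strand, has no match and no capitals.
SDC4: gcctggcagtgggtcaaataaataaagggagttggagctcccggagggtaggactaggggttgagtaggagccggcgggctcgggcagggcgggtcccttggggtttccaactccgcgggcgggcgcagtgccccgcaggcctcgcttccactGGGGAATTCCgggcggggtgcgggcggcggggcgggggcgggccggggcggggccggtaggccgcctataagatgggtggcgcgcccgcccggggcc
CD44: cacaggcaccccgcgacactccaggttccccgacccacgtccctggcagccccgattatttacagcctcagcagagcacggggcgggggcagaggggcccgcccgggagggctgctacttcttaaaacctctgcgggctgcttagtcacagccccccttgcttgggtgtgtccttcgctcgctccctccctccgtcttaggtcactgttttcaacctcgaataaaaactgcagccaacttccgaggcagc
The search covered both strands of 6 promoter entries for 5 members (SDC1 has 2 entries). SDC2 and SRGN, the only members with tested probe sets, were not among these 5. Besides the κB motif the search used the E-box CANNTG, bound by E proteins, and the RUNX motif TGTGGN. The κB motif was found in 2 entries, SDC4 and 1 of SDC1, against 9.96% of 35116 promoters. The E-box was found in 2 (61.8% of promoters) and the RUNX motif in 2 (44.8%), none of them overlapping a κB match. A match describes letters and not binding.

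CD44 stayed under the floor on all 13 probe sets, with its higher values on several of them in the arrays of both transfections. On 212063_at the control arrays stood at 2.80 and 1.99, the CBFA2T3 shRNA arrays at 2.50 and 2.53, the IKKβ(EE) arrays at 2.83 and 3.91 and those of both transfections at 3.59 and 4.57. On 204490_s_at the corresponding values were 3.53 and 3.26, 3.6 and 3.33, 3.47 and 3.64, and 4.25 and 4.51, with both transfections above all other arrays. Of the 13 CD44 probe sets 6 were higher than control without overlap with both transfections and 0 were lower, where 13.4% of all probe sets under the floor were higher and 24.3% lower. The 13 share transcripts, and several end in _x_at, which marks probes that can bind other transcripts, so they are not independent.

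When probe sets under the floor were tested too, CD44 on 204490_s_at was the 1 of 24 such member probe sets that passed with both transfections against control, at 0.99 ± 0.16 (1.98-fold, limma adjusted p = 0.0167). In that fit 1882 of the 54675 probe sets, with 62 controls left out, were called in this comparison, so nothing is read from the 1 call. Against IKKβ(EE) alone CD44 on 204490_s_at was at 0.83 ± 0.16 (limma adjusted p = 0.115). In the other 5 comparisons 0 of the 24 passed. There 1 to 6 were under an unadjusted p of 0.05, a count without a share over all probe sets, from which nothing is read. VCAN ran from 2.30 to 4.09 over its 5 probe sets. With both transfections 3 were higher and 1 lower than control without overlap, beside 13.4% and 24.3% of all probe sets under the floor. The largest of these VCAN differences was 0.47.

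**Figure D4:**
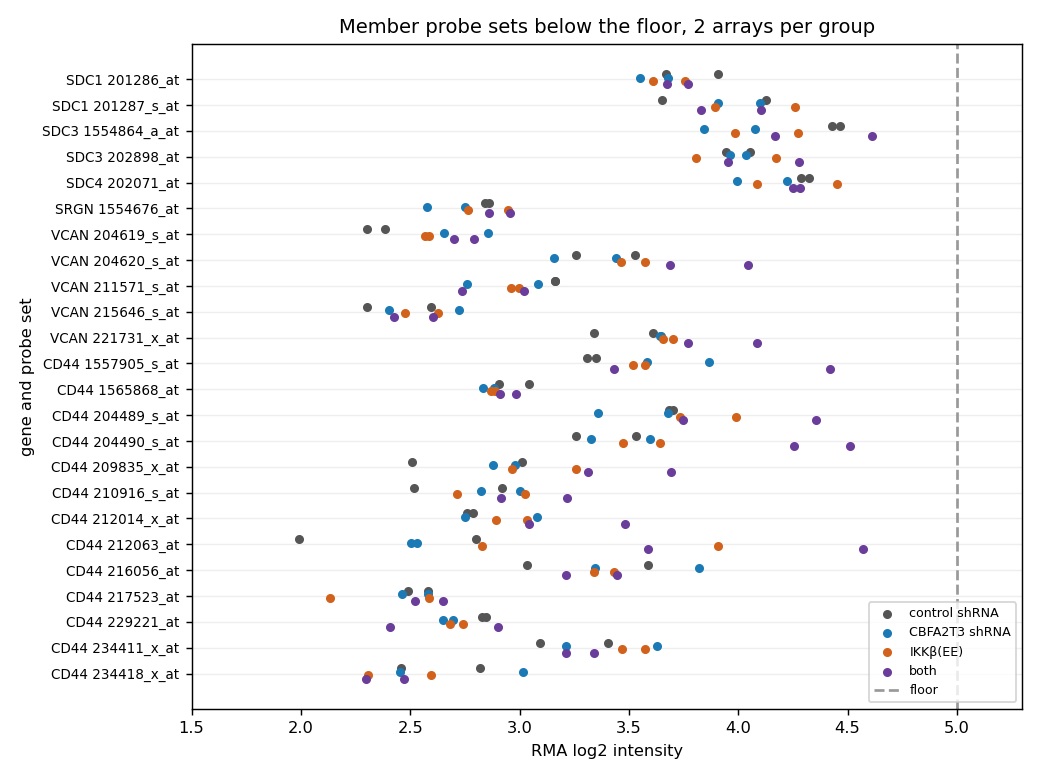
Levels (RMA log2 intensity, horizontal axis) of the 24 member probe sets that did not pass the floor (dashed line at 5), with 2 points per group and colours for the 4 groups. All points lie between 1.99 and 4.61, and the arrays with both transfections lie farthest right on several CD44 probe sets.

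Other genes of the pathway were taken from 8 lists of proteoglycan cores, enzymes that build or modify the chains, hyaluronan genes, cytoplasmic partners, proteases and serglycin cargo. Of 179 listed genes 169 were matched on the array and 83 were tested, each on the probe set with the highest mean. With both transfections against control, 8 were called higher and 4 lower, against 8.73% of 11449 genes called in either direction. The median change of the 83 was -0.01, beside -0.02 for all genes. In the single comparisons 0 of 83 were called by limma with the CBFA2T3 shRNA (background 0.839%) and 1 with IKKβ(EE) (background 0.297%). At an unadjusted p under 0.05 it was 17 of 83 with the shRNA, where 16.5% of all genes were. With the replicate block 8 were called with the shRNA, 3 higher and 5 lower (7.80% of all genes), and 6 with IKKβ(EE), all higher (3.68%).

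Among chain enzymes, heparan sulfate genes had 2 of 13 higher and 1 lower with both transfections. HS3ST1, a 3-O-sulfotransferase, rose by 1.08 ± 0.17 (limma adjusted p = 0.0161), with 6.85 and 6.67 in control and 7.85 and 7.81 with both. Its arrays under IKKβ(EE) alone were as high, at 7.89 and 7.94. HS3ST3B1, of the same enzyme family, rose by 0.83 ± 0.17 (limma adjusted p = 0.0327), and GLCE, the glucuronic acid epimerase, fell by 0.96 ± 0.19 (0.0308). The GLCE arrays stood at 5.48 and 5.09 in control and at 4.21 and 4.45, under the floor, with both. The size of its fall is therefore uncertain. In the chondroitin sulfate list (1 of 13 in each direction) the dermatan sulfate epimerase DSE rose by 1.46 ± 0.34 (limma adjusted p = 0.0435). The DSE arrays stood at 8.41 and 9.21 under IKKβ(EE) alone and at 8.37 and 9.34 with both. CHST15, which adds a further sulfate to chondroitin, fell by 1.06 ± 0.20 (limma adjusted p = 0.0248), from 9.77 and 9.91 to 8.89 and 8.67. Its CBFA2T3 shRNA arrays were at 9.08 and 8.52 and its IKKβ(EE) arrays at 9.59 and 9.81, so the arrays with the shRNA lay below those without it. Of 14 linkage and polymerase genes 0 were called by limma, with UXS1 at 0.34 (adjusted p = 0.279) and FAM20B at -0.47 (adjusted p = 0.0757, or 0.0190 with the block) at the ends.

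The largest rises in the lists were those of secreted proteins. TNFAIP6, a hyaluronan-binding protein, stood at 4.56 and 4.59 in control, 2.83 and 3.69 after the shRNA, 7.07 and 7.06 under the kinase, and 7.80 and 8.40 after both transfections. Against control it rose with IKKβ(EE) by 2.49 ± 0.29 (limma adjusted p = 0.0261) and with both by 3.53 ± 0.29 (0.00193). Against the shRNA alone the rise was 4.84 ± 0.29 (limma adjusted p = 0.000739). TNFAIP6 passed the floor only through the arrays with the kinase construct, so its calls are no support and the size of its rise is uncertain. TIMP1, an inhibitor of matrix metalloproteinases, went from 5.80 and 5.95 in control to 8.76 and 9.69 with both transfections (3.35 ± 0.30, limma adjusted p = 0.00263), with 6.59 and 7.01 under the CBFA2T3 shRNA and 7.64 and 7.99 under IKKβ(EE). It also rose against the shRNA alone, by 2.43 ± 0.30 (limma adjusted p = 0.0168).

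CXCL8, a chemokine listed as serglycin cargo, rose by 4.20 ± 0.84 with both transfections (limma adjusted p = 0.0298), the 1 called of 3 tested in that list. MMP9, a gelatinase, is among the genes called higher but passed the floor only through the arrays of both transfections (5.62 and 6.58), with the others at 4.44 to 4.81, so its call is no support. TIMP2 fell by 0.67 ± 0.15 (limma adjusted p = 0.0418) and TIAM1, a Rac activator, by 0.71 ± 0.12 (0.0210). The proteoglycan core gene SPOCK2 rose by 1.05 ± 0.25 (limma adjusted p = 0.0449), the 1 called of 11 tested cores. Its arrays stood at 6.12 and 6.23 under IKKβ(EE) alone and at 5.88 and 6.71 with both.

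Among these 12 calls, the rise of TIMP1 with both transfections ran from 2.88 to 3.82 with an array left out. That of TNFAIP6, over a control under the floor, ran from 3.23 to 3.83. The change of SPOCK2 ran from 0.63 to 1.46, that of HS3ST3B1 from 0.58 to 1.08 and that of TIMP2 from -0.83 to -0.50. The number of the 83 genes called fell with any array left out except replicate 1 of both transfections, as did the number over all probe sets. With only the arrays of the 2 groups in the fit it was 5 of the 83. Over all tested probe sets that fit called 532, beside 2064 in the main fit. With the replicate block 27 were called, 14 higher and 13 lower, where 24.1% of all genes were. The rise of TNFAIP6 with IKKβ(EE) alone was lost without either control or either IKKβ(EE) array (limma adjusted p up to 0.292), and that of TIMP1 against the shRNA without either control or either CBFA2T3 shRNA array (up to 0.154). Against the shRNA alone TNFAIP6 and TIMP1 were the 2 called by limma (background 0.952%). With the block 10 were called there, 9 higher and 1 lower (5.56% of all genes). Against IKKβ(EE) alone limma called 0 of 83 (background 0.175%), or 7 with the block, 5 higher and 2 lower (4.62%). In the interaction it called 0 with or without the block (background 0.0175%). At an unadjusted p under 0.05 these were 17 and 6 of 83, where 14.4% and 1.90% of all genes were.

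**Figure D5:**
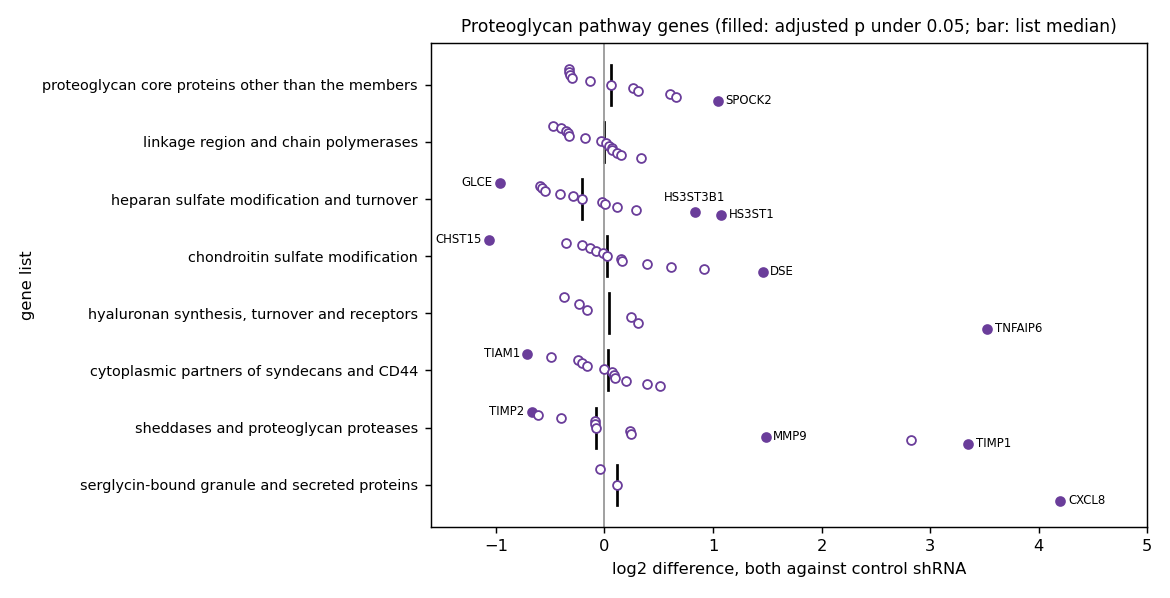
Log2 differences between both transfections and control (horizontal axis) for the 83 tested genes of the 8 lists, 1 point per gene, with filled and named points for those with an adjusted p under 0.05 and a bar at each list's median. TNFAIP6, TIMP1 and CXCL8 lie farthest to the right, between 3.35 and 4.20.

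The genes whose levels followed a member most closely were found by Pearson correlation over the 8 arrays, among 1739 genes that ranged over at least 1 log2 unit. For SDC2 on 212158_at they were PPM1F, a phosphatase (r = 0.97), the MHC class II genes HLA-DPB1 (0.96) and HLA-DRB1 (0.95), ISM1 (0.95) and the membrane fusion gene SNAP23 (0.95). HLA-DPB1 averaged 11.75 in control, 10.66 after the shRNA, 12.46 under the kinase and 11.34 after both transfections. For SRGN on 201859_at they were the immunoglobulin lambda genes IGLC1 (1.00) and IGLV1-44 (0.99), LAMP3 (0.99), EBI3 (0.99) and the adhesion ligand ICAM1 (0.99). ICAM1 had means of 6.23, 6.22, 9.57 and 9.85 in the same order. For CD44 on 204489_s_at, a probe set under the floor, they were SYNJ2 (0.95), NFATC2 (0.93), IFFO2 (0.92), SRC (0.92) and NFKBID (0.92). These values describe 8 arrays that share the group structure and are given without a test.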

How the data were processed

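RNA of 8 Reh cultures was measured on Affymetrix U133 Plus 2.0 arrays. The deposited log2 intensities were made by the authors with RMA, per the submitters' processing notes, which gives all arrays the same distribution and so removes shifts shared by most transcripts; its version was not given in the sources used here. Values near background understate folds. Of 54675 probe sets, 62 controls and 30132 below the floor (log2 5 on at least 2 arrays) were left out, leaving 24481. GEO's platform annotation named 1 gene for 41097 of all probe sets, several for 1801 and no gene for 11777.

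The limma 3.58.1 fit (R 4.3.3) had 1 mean per group and a spread shared by the 4 groups, with 4 residual and 3.54 prior degrees of freedom. Tests were two-sided, with Benjamini-Hochberg adjustment in each of 6 comparisons and calls under 0.05. Errors after ± are standard errors. The fit was tested on simulated data. The number of arrays limits the precision: 2 against 2 arrays cannot go under p = 0.333 in an exact permutation test. The labels do not say what was separate between biological replicates, so p-values measure the spread between these arrays, which may be technical.

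Deviations of equally numbered arrays (replicate 2 minus replicate 1) were correlated in each of the 6 group pairs, at 0.34 to 0.58. The main fit, with its errors and intervals, leaves this pairing out. An alternative fit used the replicate number as a block. No label names a shared day or batch. The fit with this block is given beside tested members and list counts where it changed a call or count. Other alternatives were no floor, a floor at log2 6, cyclic loess, equal array medians, array weights, robust moderation, an intensity trend, the compared groups alone and each array left out.

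The members and lists were chosen with earlier results of these data known. Named pathway genes are, per list and comparison, up to 2 called genes at either end, or the ends of a list with no call after both transfections. HLA-DPB1 and ICAM1, and both promoters shown, were picked after values were seen. Promoters are RefSeq's (GRCh38.p14), matched by symbol; 5 of the 7 members had an entry that was searched.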

Additional observations from a re-analysis of the deposited data

How the results depend on the processing

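Of 493 refits of the 5 tested member probe sets, 436 kept direction and side of the threshold, 43 kept the direction and lost the call, 5 gained it and 9 turned, all of the 9 with a left-out array and in differences that had not passed. These were SDC2 on 212157_at with both transfections against control (-0.32 to 0.016 with an array left out) and against the CBFA2T3 shRNA (-0.0049 to 0.17), SRGN on 201859_at against IKKβ(EE) (-0.068 to 1.18), and the SRGN interaction without replicate 1 of the CBFA2T3 shRNA (-0.07 and -0.11), replicate 1 of IKKβ(EE) (-0.30 and -0.22) and replicate 2 of both (-0.58 and -0.46, on 201858_s_at and 201859_at, with highest values of 0.86 and 0.79). The cause was not tested. The totals include the 3 probe sets of SDC2, also in the comparisons for which SDC2 is given as a description. They are therefore no support for its differences.

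The number of member probe sets called with the CBFA2T3 shRNA went from 2 to 1 with a floor at log2 6, where only 3 were tested, and to 1 with an intensity trend, and lay between 0 and 2 with an array left out. With IKKβ(EE) it was 3, 4 with the replicate block, and between 0 and 3 with an array left out. For both transfections against control it was 2, always 2 with an array left out, and 4 with the replicate block. Against the CBFA2T3 shRNA it was 2, 0 with only the groups compared, and 0 to 2 with an array left out, and against IKKβ(EE) 2, 1 with a floor at log2 6, 1 with only the groups compared, and 0 to 2 with an array left out. The last 2 calls, the 2 with the CBFA2T3 shRNA and 1 of the 3 with IKKβ(EE) are of SDC2. It was chosen on the arrays of the single constructs, so these calls support nothing. The calls of SDC2 that the replicate block added are no support either. The interaction gave 0 in every fit run.

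Counts over all probe sets moved more. The replicate block, applied to the pairing above, raised them from 169 to 1890, 56 to 831, 2064 to 5810, 211 to 1244 and 35 to 1117 in the order of comparisons, and left the interaction at 3. The compared groups alone gave 359, 124, 532, 37 and 6. For the CBFA2T3 shRNA an intensity trend gave 268 and array weights 449, for IKKβ(EE) no floor gave 89 and the trend 98, for both against IKKβ(EE) no floor gave 58, and for the interaction no floor gave 6 and the trend 1. With an array left out the counts ran from 0 to 297, 5 to 214, 82 to 3645, 38 to 836, 3 to 399 and 0 to 24, so the background shares rest on single arrays too. Of 808 refitted list counts 712 stayed within 1.5 times and 96 did not.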
